A study of Mus musculus with 87 samples.

Results

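The comparison described here is that of neuronal precursors (NP) carrying a Suz12 deletion of exon 4, called Deltaex4, with wild-type (WT) NP. Its members are the 15848 genes, of 26171 in the deposited table, whose mean normalised read count over the 4 libraries (baseMean) was at least 10. Nxf3, just above that minimum, had a deposited log2 fold change of -2.11, and Ctxn3, just below it, had 0.22. The series holds 87 samples of the mouse embryonic stem cell (ESC) line 129-B13, 32 of them RNA-seq and 55 ChIP-seq, and 14 of the RNA-seq samples are NP. All NP were made the same way: ESC formed embryoid bodies, retinoic acid was added on day 4, and RNA was taken on day 8. Both Deltaex4 samples were compared with 2 of the 4 WT samples, which carry no Suz12 change. Other NP genotypes are CSex4 (exon 4 always included), KO (full Suz12 knock-out), and the KO rescued with the long (KO-L) or the short (KO-S) isoform. The labels do not say whether the 2 samples of a genotype came from separate clones or separate differentiations, so the p-values measure only the spread between these samples, which may be technical.

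Polycomb repressive complex 2 (PRC2) places methyl groups on lysine 27 of histone H3 (H3K27me3), a mark of silenced developmental genes. SUZ12 is the subunit that holds the catalytic subunit EZH1 or EZH2 and EED together and also docks the accessory subunits that guide the complex to chromatin. Exon 4 of Suz12 is alternatively spliced, which gives a long and a short protein. In embryoid bodies, retinoic acid pushes cells toward neural precursors of hindbrain and spinal cord character, in which factors of the forebrain are normally low and Hox genes are switched on.

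The authors' deposited table gives no level per library, but its baseMean has 15 digits, and from these the whole read count of every library was recovered for all 15848 members. Levels below are CPM, reads per 1000000 reads of the library. The libraries are named by letters that do not correspond to replicate numbers: WT a and b and Deltaex4 a and b are the 4 of the comparison, and WT c and d are the other NP WT, which enter the deposited comparison nowhere. Totals ran from 28256322 to 32820028 reads in the 4 libraries, with 47286247 and 29581893 in WT c and d.

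WT library a stood apart from the other WT. In the 3 pairs of WT libraries that include WT a, 17.0% to 21.2% of the 15848 genes lay 2-fold or more apart, 19.6% between a and b. In the other 3 WT pairs the share was 4.88% to 12.1%, and between the Deltaex4 libraries it was 10.2%. The summed level of 18 neuronal genes was 489 CPM in WT a and 2207, 2144 and 2424 in WT b, c and d, and it was 2070 and 1660 in Deltaex4 a and b. The summed level of 18 endoderm markers was 5521 in WT a and 1355, 3812 and 3314 in WT b, c and d, against 2162 and 4163 in Deltaex4, so that WT a was the highest of the 6 and WT b the lowest. Results are therefore given against WT a and b, as deposited, and against WT c and d. In bulk RNA, fewer cells of a type and less RNA per cell cannot be told apart.

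In the authors' deposited table, 14 members passed an adjusted p of 0.05, which is 0.0883% of those tested. Of these, 5 were higher in Deltaex4 (0.0315%): Otx2, Slc38a8, Six3, its antisense neighbour Six3os1, and Mab21l2. The 9 lower genes (0.0568%) were Stra8, Dmrt1 and Sohlh2, which act in germ cells, the mesenchymal factors Foxf1 and Tcf21, the imprinted RNA Meg3, Npr1, Sprr1a and the predicted gene Gm52429. An unadjusted p under 0.05 was reached by 397 genes (2.51%), 176 higher (1.11%) and 221 lower (1.39%), and the median log2 fold change of all members was 0.00. With limma on the recovered reads, 0 genes passed an adjusted p of 0.05 and 232 had an unadjusted p under 0.05. The 14 calls are thus those of the authors' count model. Both Deltaex4 libraries lay outside WT a and b for 13 of the 14, Mab21l2 being the exception, where 10.1% of all members lay above and 14.1% below. Of the 14, 7 had both Deltaex4 libraries outside the range of all 4 WT libraries, where 5.70% of members lay above and 6.15% below. The 14 were called by a test on WT a and b and these Deltaex4 libraries, so neither count is further support for them.

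**Figure D1:**
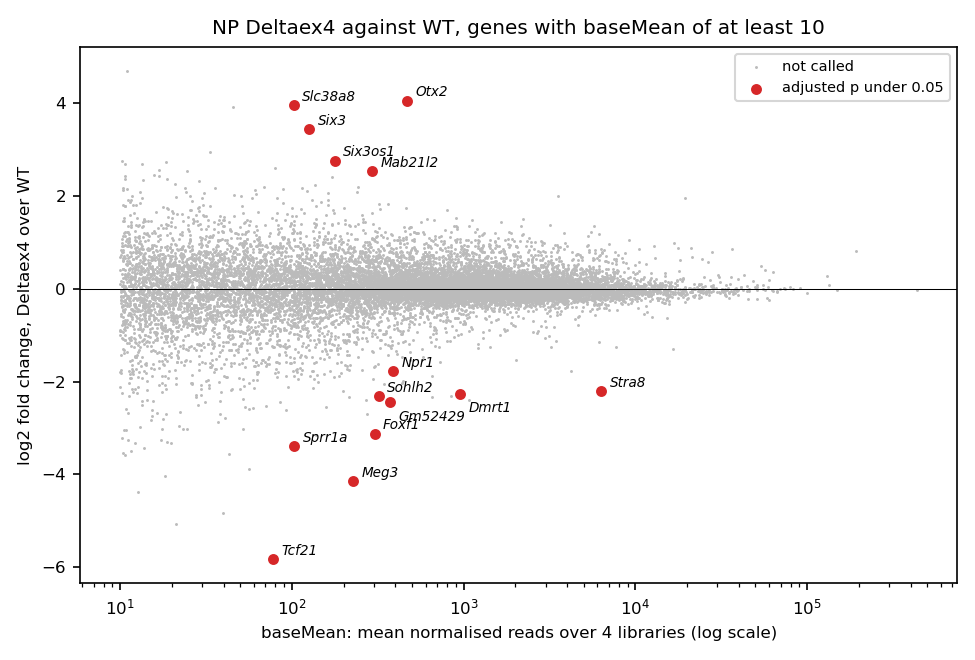
Deposited log2 fold change of Deltaex4 over WT (vertical axis) against baseMean, the mean normalised reads over 4 libraries (horizontal axis, log scale), 1 point for each of 15848 genes. The 14 red genes passed an adjusted p of 0.05, from Tcf21 at -5.82 to Otx2 at 4.05.

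The called genes were mixed in whether their starts lay at a Polycomb region of WT ESC. Of the 12 called genes with an entry in the RefSeq promoter table (GRCm38.p6), 7 had a start within 2500 bases of a Suz12 region and 7 of an H3K27me3 region of ESC. Among the higher genes 4 of 5 lay at an H3K27me3 region, and among the lower 3 of 7. The 4 include the neighbours Six3 and Six3os1 of 1 locus, and the lower genes Foxf1 and Dmrt1 had no entry. Counts this small do not show a difference between the directions. Of all 12432 members with an entry, 2838 lay at an H3K27me3 region and 1491 at a Suz12 region. Below are a pair of higher genes whose start lies inside such a region (Otx2, at the first of its 4 listed starts, and Six3), and 1 higher and 1 lower gene whose start does not (Slc38a8 and Stra8). Each runs from 250 bases before to 50 after the start along the gene's strand, with every CG, the dinucleotide that Polycomb target promoters are rich in, in capitals.
Otx2 (chr14:48667595-48667894, minus strand): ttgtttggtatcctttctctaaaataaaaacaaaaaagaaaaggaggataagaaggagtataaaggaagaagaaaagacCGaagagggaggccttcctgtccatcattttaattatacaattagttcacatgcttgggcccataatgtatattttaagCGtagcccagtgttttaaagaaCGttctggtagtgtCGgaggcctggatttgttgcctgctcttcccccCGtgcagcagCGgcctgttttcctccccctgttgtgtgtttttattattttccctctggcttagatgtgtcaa
Six3 (chr17:85620584-85620883, plus strand): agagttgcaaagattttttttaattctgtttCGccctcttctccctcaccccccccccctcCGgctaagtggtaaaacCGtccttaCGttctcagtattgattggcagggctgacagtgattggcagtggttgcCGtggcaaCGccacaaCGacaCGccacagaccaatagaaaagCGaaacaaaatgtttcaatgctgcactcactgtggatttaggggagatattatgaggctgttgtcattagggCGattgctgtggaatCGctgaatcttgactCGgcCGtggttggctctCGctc
Slc38a8 (chr8:119501649-119501948, minus strand): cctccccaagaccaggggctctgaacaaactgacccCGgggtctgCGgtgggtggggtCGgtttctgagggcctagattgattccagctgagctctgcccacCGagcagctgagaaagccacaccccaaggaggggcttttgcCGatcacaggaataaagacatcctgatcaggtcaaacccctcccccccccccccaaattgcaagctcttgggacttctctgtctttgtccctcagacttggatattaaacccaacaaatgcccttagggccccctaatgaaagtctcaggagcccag
Stra8 (chr6:34920698-34920997, plus strand): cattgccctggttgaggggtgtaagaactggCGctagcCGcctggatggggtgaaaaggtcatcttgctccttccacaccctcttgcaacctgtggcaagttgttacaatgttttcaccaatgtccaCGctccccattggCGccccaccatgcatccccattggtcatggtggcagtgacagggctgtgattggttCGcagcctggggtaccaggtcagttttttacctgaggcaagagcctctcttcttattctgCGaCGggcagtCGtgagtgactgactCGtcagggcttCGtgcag
Six3 has 14 CG, Stra8 10, this Otx2 start 6 and Slc38a8 5. The other listed Otx2 starts, also inside an H3K27me3 region, have 8, 16 and 11. Over 32851 RefSeq promoters of this length the median was 7, and it was 20 for the 3737 whose start lies inside an ESC H3K27me3 region. The regions were measured in ESC, and their state in NP was not analysed here.

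Otx2, the homeodomain factor of forebrain and midbrain, had the smallest p in the table. It stood at 0.701 and 3.86 CPM in WT a and b, 2.05 and 1.83 in WT c and d, and 23.8 and 33.2 in Deltaex4 a and b. Both Deltaex4 libraries lay above all 4 WT libraries. The authors' deposited table gives a log2 fold change of 4.05 ± 0.55 (SE; n = 2 and 2) and an adjusted p of 2.16e-09. Against WT c and d the mean difference was 3.84 on the log2(CPM + 0.03) scale used for all differences between libraries.

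Six3, a homeodomain factor of the anterior forebrain and eye, had 0.152 and 1.70 CPM in WT a and b, 0.529 and 1.79 in WT c and d, and 3.00 and 11.7 in Deltaex4. Its log2 fold change was 3.44 ± 0.72 (SE) with an adjusted p of 0.00305 in the authors' deposited table. Six3os1, transcribed from the opposite strand next to it, had 0.457 and 2.70 in WT a and b, 0.423 and 1.76 in WT c and d, and 3.33 and 17.0 in Deltaex4. The Deltaex4 libraries lay above all 4 WT libraries for both genes, with library b the higher. Whether the authors' counting used strand is not given in the sources used here, so reads of overlapping transcripts may not be separated. Without WT library a, limma put Six3 at 1.82.

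Slc38a8, an amino acid transporter gene, had between 0.211 and 0.433 CPM in the 4 WT libraries, and 2.24 and 10.4 in Deltaex4. Its log2 fold change was 3.95 ± 0.79 (SE), with an adjusted p of 0.00114, in the authors' deposited table. Mab21l2, a gene of eye and midbrain development, had 0.640 and 7.39 in WT a and b, 4.74 and 7.40 in WT c and d, and 7.23 and 23.6 in Deltaex4. Only Deltaex4 b exceeded the WT range for Mab21l2, and its log2 fold change of 2.53 ± 0.58 (adjusted p 0.0166 in the authors' deposited table) was 0.85 without WT a in limma.

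**Figure D2:**
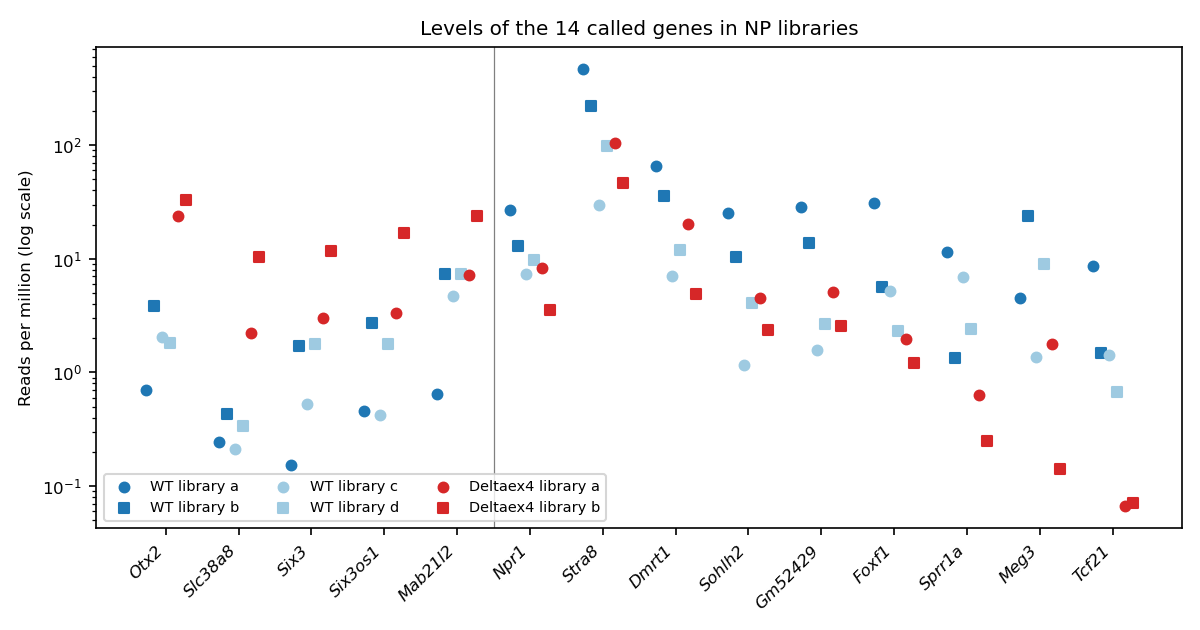
Levels of the 14 called genes in CPM (log scale) in the 4 WT and 2 Deltaex4 libraries, 1 point per library, with genes higher in Deltaex4 left of the line and lower ones right. Otx2 in Deltaex4 (23.8 and 33.2) lies above all 4 WT libraries, while Stra8 in Deltaex4 (105 and 46.3) overlaps WT c and d (29.6 and 98.9).

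The lower genes differed in whether they were also lower than in WT c and d. Stra8, the retinoic acid-induced gatekeeper of meiosis, had 469 and 221 CPM in WT a and b and 105 and 46.3 in Deltaex4, but 29.6 and 98.9 in WT c and d. Its log2 fold change of -2.20 ± 0.30 (adjusted p 2.36e-09 in the authors' deposited table) became 0.37 against WT c and d. Dmrt1, a male germline transcription factor, had 65.1 and 35.9 in WT a and b, 6.98 and 11.9 in WT c and d, and 20.3 and 4.92 in Deltaex4. Sohlh2, a factor of early germ cell differentiation, had 25.3 and 10.4 in WT a and b, 1.16 and 4.09 in WT c and d, and 4.55 and 2.34 in Deltaex4. Gm52429 went the same way, at 28.4 and 13.7, then 1.56 and 2.64, and 5.08 and 2.55. For these 4 genes the Deltaex4 libraries lay below WT a and b and overlapped WT c and d, and the differences from c and d were 0.13 for Dmrt1, 0.57 for Sohlh2 and 0.82 for Gm52429.

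Tcf21, a factor of mesenchyme and epicardium, had 8.65 and 1.47 CPM in WT a and b, 1.42 and 0.676 in WT c and d, and 0.0660 and 0.0708 in Deltaex4, which is 2 reads in each. Foxf1, a forkhead factor of lateral mesoderm, had 31.2 and 5.66, then 5.20 and 2.30, against 1.98 and 1.20 in Deltaex4. Sprr1a, a cornified envelope gene of stressed epithelia, had 11.4 and 1.33, then 6.92 and 2.43, against 0.627 and 0.248. For these 3 genes both Deltaex4 libraries lay below all 4 WT libraries, and WT a was the highest of them. Their deposited log2 fold changes were -5.82 ± 1.13, -3.12 ± 0.58 and -3.39 ± 0.81 (SE), with adjusted p of 8.17e-04, 2.55e-04 and 0.0394 in the authors' deposited table. Against WT c and d the differences were -3.36 for Tcf21, -1.15 for Foxf1 and -3.28 for Sprr1a, and without WT a limma gave -3.85, -1.82 and -1.63.

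Npr1, the receptor of atrial natriuretic peptide, had 26.9 and 12.9 CPM in WT a and b, 7.36 and 9.77 in WT c and d, and 8.25 and 3.57 in Deltaex4. Meg3, the maternally expressed RNA of the imprinted Dlk1 domain, had 4.48 and 24.0 in WT a and b, 1.37 and 8.92 in WT c and d, and 1.78 and 0.142 in Deltaex4. Meg3 thus spread over more than 10-fold among the WT libraries themselves, and Deltaex4 a lay inside that spread. The authors' deposited table gives -1.77 ± 0.43 for Npr1 (adjusted p 0.0430) and -4.14 ± 0.99 for Meg3 (adjusted p 0.0394).

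Just past the called genes were A2m, Lhx2 and Uba1y, each with an adjusted p of 0.0528 in the authors' deposited table. A2m, a secreted protease inhibitor, had 3.85 to 5.44 CPM in the 4 WT libraries and 13.4 and 19.7 in Deltaex4, a log2 fold change of 1.83 ± 0.45. Fabp7, the radial glia fatty acid-binding protein, had 19.3 in WT a, 99.7, 119 and 111 in WT b, c and d, and 186 and 163 in Deltaex4, with an adjusted p of 0.0998. Tdgf1, the Nodal co-receptor, had 12.4, 3.50, 2.58 and 1.86 in WT a to d and 28.7 and 16.6 in Deltaex4, with an adjusted p of 0.131. A2m, Fabp7 and Tdgf1 did not pass the test. Each of the 3 had both Deltaex4 libraries above all 4 WT libraries, as 5.70% of all members did. Lhx2 overlapped the WT range, and Uba1y lay below all 4. These genes were named for their large statistics in the same libraries, so their separation from WT a and b is no further support.

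The targeted gene itself did not pass the test. Suz12 had 172 and 197 CPM in WT a and b, 116 and 105 in WT c and d, and 139 and 104 in Deltaex4, so that Deltaex4 lay below WT a and b and overlapped WT c and d. The authors' deposited table gives -0.61 ± 0.33 (SE; unadjusted p 0.0616, adjusted p 1.000). A count over the whole gene does not show whether exon 4 is present, so it does not check the deletion; the KO, by contrast, had 43.7 and 42.0 CPM. Of the 12 PRC2 subunit genes, 0 were called and 1 had an unadjusted p under 0.05: Phf19, an accessory subunit, at -1.12 ± 0.43. Its difference from WT c and d had the opposite sign, 1.00. The catalytic subunit genes Ezh2 (0.09) and Ezh1 (-0.15) and the core gene Eed (-0.08) did not pass the test. The list's median was -0.11, and 0.20 against WT c and d, and that of 21 PRC1 subunit genes was 0.03 with 0 of them at an unadjusted p under 0.05.

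The factors that assign forebrain, midbrain and hindbrain identity, Otx2 and Six3 among them, formed the list with the highest median. It was 1.07 over 17 measured of 19 members, where all members of the table had 0.00. Of the 17, 2 passed the adjusted test and 7 had an unadjusted p under 0.05, all higher, where 1.11% of all members were. The baseMean minimum bears on this list: Emx1 (-1.88) and Egr2 (-0.82), both of low count, fell under it, while Fgf8 (baseMean 11.7) passed it mainly through Deltaex4 b, at 1.06 CPM where the other 5 libraries had 0.0211 to 0.231. Without the minimum the median was 0.92. Both Deltaex4 libraries lay above all 4 WT libraries for Otx2, Six3, Six6, En2 and Emx2, and for Fgf8 on those few reads, where 5.70% of all members did. The list's median was 1.51 for Deltaex4 a over WT a, 1.54 for b over b, and 0.96 against WT c and d.

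Within that list several factors of the anterior forebrain and eye lay above the list's median of 1.07. Hesx1, also of the anterior forebrain, had 0.52 ± 1.36 and overlapped the WT range. Six6, the Six3 paralog of retina and hypothalamus, had 2.83, 3.23, 2.03 and 2.03 CPM in WT a to d and 8.15 and 12.4 in Deltaex4. Lhx2, a LIM factor of eye field and cortex, had 1.89, 9.62, 1.97 and 4.33 in WT and 8.22 and 28.0 in Deltaex4, with Deltaex4 a inside the WT range. Rax, the eye field factor, had 0, 0.666, 0.127 and 0.744 in WT and 0.594 and 4.74 in Deltaex4, so that only library b was above WT. Their deposited log2 fold changes were 1.74 ± 0.53, 1.83 ± 0.45 and 3.91 ± 1.25.

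Of the members described next, En2 had a value close to that of Six6, and the others had smaller ones. En2, of the midbrain-hindbrain boundary, had 2.50 to 3.24 CPM in WT and 7.36 and 10.2 in Deltaex4 (log2 fold change 1.62 ± 0.55, adjusted p 0.640 in the authors' deposited table). Emx2, a cortical and urogenital factor, had 4.36 to 10.2 in WT and 10.9 and 18.9 in Deltaex4. Pax2 (0.71), Pax8 (0.66) and Gbx2 (0.14), which mark the boundary and the hindbrain, had both groups overlapping and did not pass the test.

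**Figure D3:**
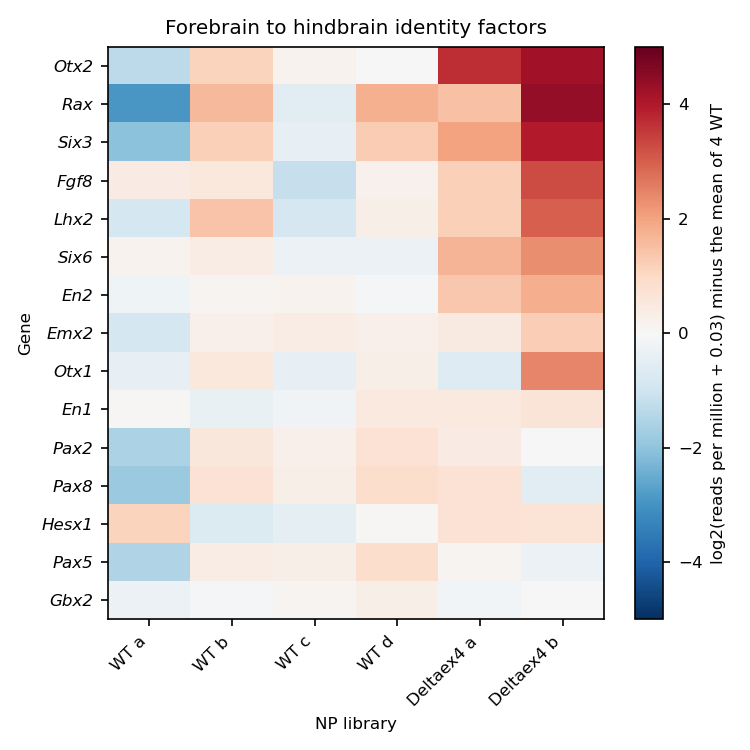
Levels of 15 of the forebrain to hindbrain identity factors (rows, ordered by deposited fold change) in 6 NP libraries (columns), as log2(CPM + 0.03) minus the mean of the 4 WT libraries. Otx2 is high in both Deltaex4 libraries, Rax and Otx1 mainly in Deltaex4 b, and Gbx2 at the bottom is near the WT mean in all 6.

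Neural progenitor genes had a median of 0.55, and all 18 lay above 0, with 0 called. An unadjusted p under 0.05 was reached by 5, all higher, where 1.11% of all members were. Sox1, the earliest neural plate SoxB1 factor, had 26.6, 25.1, 32.7 and 19 CPM in WT a to d and 42.7 and 66.5 in Deltaex4. Sox21, an antagonist of SoxB1 factors, had 10.9, 23.9, 24.0 and 28.0 in WT and 41.2 in both Deltaex4 libraries. Nes, the intermediate filament of progenitors, had 137 in WT a, 291 to 314 in the other WT and 327 and 379 in Deltaex4. These 3 and Fabp7 were the 4 of 18 above all WT libraries, where 5.70% of all members were. However, the list's median against WT c and d was -0.05.

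Neuronal genes and proneural factors had positive medians in pair a and negative ones in pair b. The 18 neuronal genes had a deposited median of 0.87, with 0 called. An unadjusted p under 0.05 was reached by 4, all higher, where 1.11% of all members were. The median was 2.26 for Deltaex4 a over WT a and -0.56 for b over b, and it was -0.35 against WT c and d. Tubb3, the neuronal tubulin, had 97.8 in WT a against 351, 442 and 378 in WT b, c and d, and 446 and 328 in Deltaex4. The 10 proneural factors had 0.51 as deposited, 1.83 in pair a, -0.86 in pair b and -0.31 against WT c and d. For both lists 0 genes had Deltaex4 above all 4 WT libraries.

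**Figure D4:**
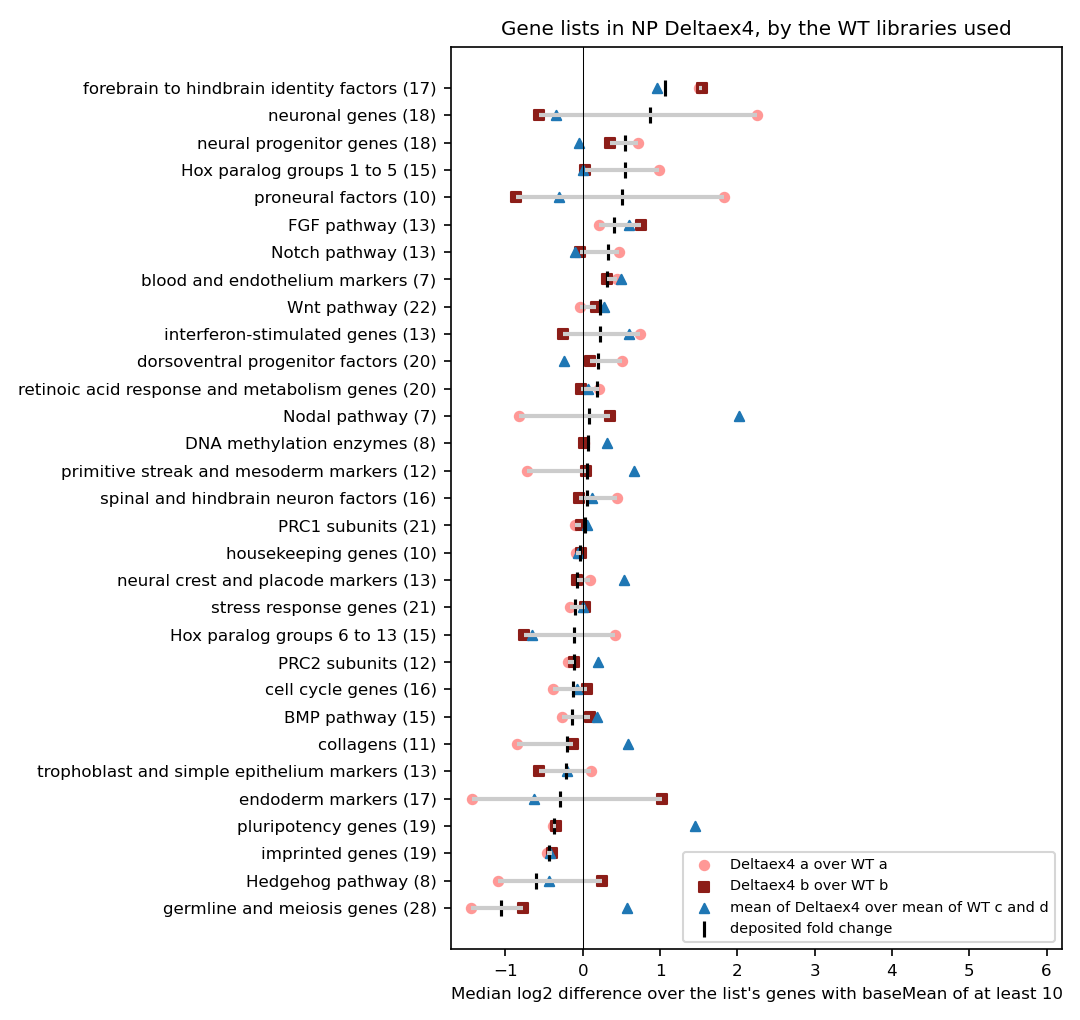
Median log2 difference of each of 31 gene lists (rows, number of measured genes in brackets): black ticks are the deposited fold changes, circles and squares the 2 within-pair differences, and triangles the difference from WT c and d. The identity factors lie right of 0 in all of these (0.96 to 1.54), while neuronal genes run from -0.56 to 2.26 and germline genes change sign (-1.06 as deposited, 0.57 against WT c and d).

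Factors of dorsoventral pattern and the Hedgehog pathway were mixed. Shh, the ventral midline ligand, had 4.91, 1.30, 3.05 and 1.28 CPM in WT a to d and 0.165 and 0.531 in Deltaex4, below all WT libraries (-3.02 ± 1.12, adjusted p 1.000 in the authors' deposited table). Its receptor gene Ptch1, itself a target of the pathway, had 237, 130, 180 and 153 in WT and 106 and 116 in Deltaex4. The target Gli1 had 36.0, 11.5, 22.1 and 15.3 in WT and 6.83 and 13 in Deltaex4, which overlap. Of the 8 pathway genes 3 lay below all 4 WT libraries, where 6.15% of all members did. None was called, and 1, Shh, had an unadjusted p under 0.05, where 1.39% of all members were lower. The fold change was below 0 for 5 of the 8 and above 0 for 3, Gli2 (0.37), Gli3 (0.42) and Smo (0.17). The Hedgehog list's median was -0.61, but -1.10 in pair a, 0.25 in pair b and -0.44 against WT c and d. Foxa1, a forkhead factor of floor plate and endoderm, had 11.0 to 36.7 in WT and 3.23 and 7.33 in Deltaex4 (unadjusted p 0.00189). Of 20 measured dorsoventral progenitor factors, 5 were higher and 1 lower at an unadjusted p under 0.05, where 1.11% and 1.39% of all members were. Gsx1 (1.40 ± 0.53), Pax3, Msx2, Irx3 and Irx5 were the higher, and Pax3 and Irx5 overlapped the WT range. Other dorsal or intermediate factors of the list had values below 0, among them Olig3 (-0.70) and Dbx2 (-1.09). The dorsoventral list's median was 0.20, and -0.24 against WT c and d. It was -0.10 with no baseMean minimum and 0.76 at a baseMean of at least 100, so its sign depended on the filter.

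Hox genes were described in 2 sets of paralog groups. Groups 1 to 5, the hindbrain and cervical genes, had a median of 0.55 with 13 of 15 above 0, but 0.99 in pair a, 0.03 in pair b and 0.00 against WT c and d. At an unadjusted p under 0.05, 2 genes of groups 6 to 13 were higher and 3 lower, where 1.11% and 1.39% of all members were. Groups 6 to 13 had a median of -0.11 over 15 measured of 24. That median was -1.18 with no baseMean minimum and 0.33 at a baseMean of at least 100. The higher were Hoxa6 (1.15) and Hoxb6 (1.13), and both overlapped the WT range. The lower were low-count posterior genes, each below all 4 WT libraries: Hoxb13 with 0.642 to 3.75 CPM in WT and 0.528 and 0.602 in Deltaex4, Hoxc8 with 1.54 to 3.90 and then 0.693 and 0.991, and Hoxc9 with 0.360 to 1.43 and then 0.165 and 0.177. Hoxc9 rested on 5 reads in each Deltaex4 library. None of the 3 was called.

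Germline and meiosis genes had the lowest median of the larger lists, -1.06 over 28 measured of 31, with 26 below 0 and 3 called lower. An unadjusted p under 0.05 was reached by 11, all lower, where 1.39% of all members were. Besides Stra8, Dmrt1 and Sohlh2, these included Meioc, which keeps cells in meiotic prophase, at -1.88 ± 0.62, and Rec8, the meiotic cohesin, at -1.07 ± 0.34. Meioc had 7.28 and 6.13 CPM in WT a and b, 1.72 and 1.91 in Deltaex4, and 0.909 and 2.26 in WT c and d. The germ cell RNA-binding gene Dazl had 21.8 and 11.0, then 6.47 and 7.15, but 1.14 and 2.03 in WT c and d, where Deltaex4 was the higher. Against WT a and b, 18 of the 28 lay below, where 14.1% of all members did. Against all 4 WT libraries 1 lay below and 1 above, where 6.15% and 5.70% of all members did. The median difference from WT c and d was 0.57. The summed level of the list was 977, 539, 189 and 299 in WT a to d and 460 and 238 in Deltaex4, which overlapped WT c and d.

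Promoters of this list often held the E-box CACGTG, which was searched on both strands (it is its own reverse complement). It was found in 12 of 30 promoter entries of the list (40.0%) and in 7.15% of all 32851, and the hexamer TCCCGC, on either strand and able to share 1 base with it, in 15 of 30 against 20.0%. Of the list's genes at an unadjusted p under 0.05, Ddx4, the germ cell RNA helicase (-1.17 ± 0.57), and Hormad1, a meiotic chromosome axis gene (-2.86 ± 1.26), were the 2 genes with the E-box, Hormad1 at a pair of listed starts that share it. A window of it in each shows the E-box in capitals.
Ddx4 (chr13:112652322-112652351, minus strand): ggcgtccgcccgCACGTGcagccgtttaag
Hormad1 (chr3:95559608-95559637, plus strand): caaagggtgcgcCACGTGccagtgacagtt
The 16 entries of the called genes held it in 0 cases. A match is a description of the letters and no measure of binding.

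Pluripotency genes had a deposited median of -0.37, 0 called and 2 at an unadjusted p under 0.05, both lower, where 1.39% of all members were. They were Dppa3 (-2.05 ± 0.64), of naive ESC and germ cells, and Utf1 (-0.97 ± 0.48), an ESC chromatin factor. Against WT c and d the median was 1.45, the opposite sign. Dppa3 had 21.6 and 12.1 CPM in WT a and b, 11.0 and 1.31 in Deltaex4, and 2.41 and 3.01 in WT c and d.

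Imprinted genes had a median of -0.44, with 1 called lower, Meg3. An unadjusted p under 0.05 was reached by 6, all lower, where 1.39% of all members were. Rian, a maternally expressed RNA of the same domain as Meg3, had 7.80, 23.7, 2.81 and 11.5 CPM in WT a to d and 3.76 and 1.13 in Deltaex4. Dlk1, the paternally expressed gene there, had 220, 172, 154 and 160 in WT and 125 and 101 in Deltaex4, below all WT libraries (-0.78 ± 0.30). Plagl1, an imprinted zinc finger gene, had 386, 185, 256 and 179 in WT and 104 and 140 in Deltaex4, also below all of them (-1.14 ± 0.42). H19 was low in Deltaex4 b alone, at 101, with 689 in Deltaex4 a and 296 to 950 in WT. Mest was low in Deltaex4 a alone, at 47.6, with 350 in Deltaex4 b and 219 to 315 in WT. The list's median was similar by pair (-0.46 and -0.40) and against WT c and d (-0.42). The deposited median moved with the filter, to -0.36 with no baseMean minimum and -0.29 at a baseMean of at least 100.

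Foxf1, Tcf21 and Sprr1a, called lower above, are on none of the lists of other lineages. Among 17 measured endoderm, 12 mesoderm, 13 trophoblast and epithelium, 13 neural crest and 7 blood and endothelium genes, 0 were called. Endoderm markers had -1.43 in pair a and 1.03 in pair b, following the high level in WT a and the low level in WT b given above. The 10 housekeeping genes had a median of -0.03 and ran from -0.11 to 0.04. Lists of 20 retinoic acid, 13 Notch, 22 Wnt, 15 BMP and 13 FGF genes had medians of 0.18, 0.33, 0.23, -0.14 and 0.40 with 0 called, and those of 21 stress, 16 cell cycle, 11 collagen, 13 interferon, 7 Nodal, 8 DNA methylation and 16 spinal neuron genes -0.10, -0.13, -0.20, 0.23, 0.08, 0.07 and 0.05. The spinal neuron median was -0.20 with no baseMean minimum and 0.69 at a baseMean of at least 100. Aldh1a2, the enzyme that makes retinoic acid, had 42.7 in WT a, 4.12 to 7.06 in the other WT and 3.47 and 5.45 in Deltaex4.

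Genes of 2 chromosomes differed as blocks. Of 831 members on chromosome 8, 78.1% had a fold change above 0, against 50.2% of all members, and their median was 0.175, where the other 18 autosomes ran from -0.037 to 0.065. An unadjusted p under 0.05 was reached by 31 of them in the higher direction (3.73%) and by 4 in the lower (0.481%). Of all members, 1.11% were higher and 1.39% lower at that threshold. Both Deltaex4 libraries lay above all 4 WT libraries for 144 chromosome 8 genes (17.3%), as they did for 5.70% of all members. The WT libraries themselves formed 2 levels: relative to the mean of the other WT, the median of chromosome 8 genes was 0.35 in WT a and 0.22 in WT c, and -0.23 in WT b and -0.27 in WT d. Against the mean of all 4 WT it was 0.24 and 0.16 in Deltaex4 a and b, 0.23 in both CSex4 libraries, and between -0.35 and -0.17 in the 6 KO, KO-L and KO-S libraries. The other 18 autosomes reached 0.06 and 0.12 in Deltaex4 a and b. In CSex4 they reached 0.28 and 0.29, so chromosome 8 lay inside their range there. In ESC, the authors' deposited table of Deltaex4 against WT had 0.225 for chromosome 8. Slc38a8 and Foxf1 lie on this chromosome, and without chromosomes 8 and Y 12 calls remain. DNA copy number was not measured here, and its part in these levels was not tested.

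All 4 members on chromosome Y were below all WT libraries, where 6.15% of all members were. Their median was -2.37, with 0 called. Ddx3y, an RNA helicase gene, had 30.9 to 60.6 CPM in WT and 5.08 and 14.9 in Deltaex4 (-2.30 ± 0.57, adjusted p 0.0548 in the authors' deposited table). Uty, a histone demethylase family gene, had 28.2 to 36.3 in WT and 2.90 and 15.3 in Deltaex4. Eif2s3y, a translation initiation factor gene, had 39.8 to 62.2 in WT and 3.50 and 29.4 in Deltaex4, and Uba1y, a ubiquitin-activating enzyme gene, had 0.439 to 5.06 and then 0.264 and 0.177. Deltaex4 a had the lower level of the 2 for 3 of the 4 genes. Ddx3y was also low in KO-L and KO-S, at 3.18 to 15.8, and stood at 35.7 to 53.1 in CSex4 and KO.

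**Figure D5:**
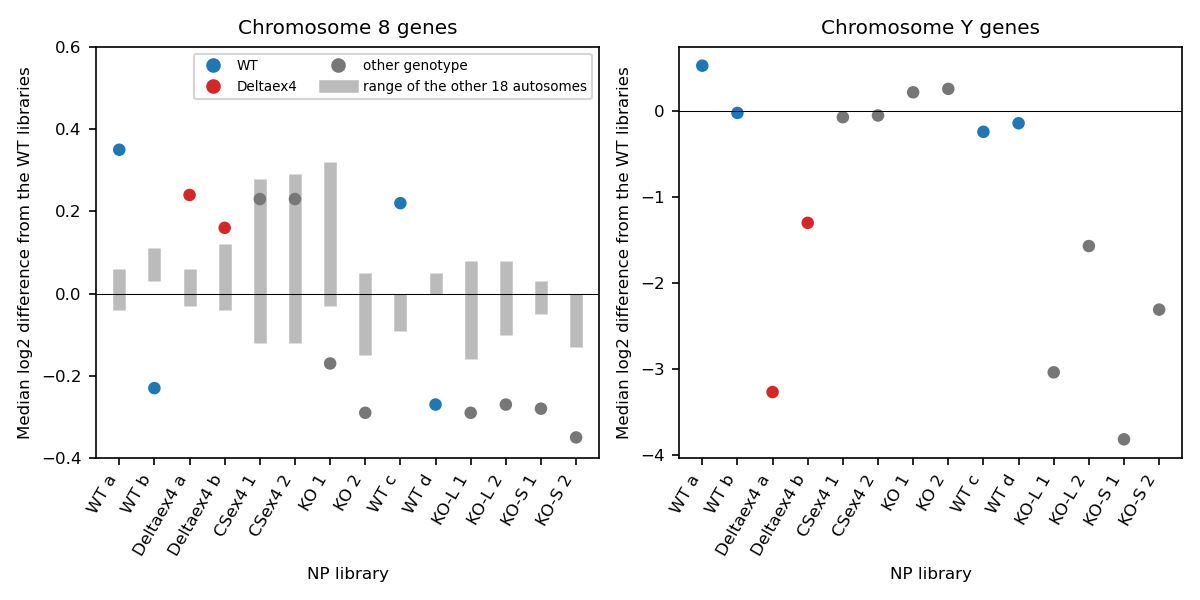
Median log2 difference of chromosome 8 genes (left) and of the 4 chromosome Y genes (right) in each NP library from the mean of the WT libraries (for a WT library, of the other WT). Grey bars give the range of the other 18 autosomes. Both Deltaex4 libraries (0.24 and 0.16) are near WT a and c on chromosome 8, and they are low on Y (-3.27 and -1.30).

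Genes that lie at Polycomb regions in ESC varied more. Of 2838 members with a start within 2500 bases of an ESC H3K27me3 region, 3.00% were higher and 2.50% lower at an unadjusted p under 0.05, against 0.323% and 1.02% of 9594 others. Their median absolute log2 fold change was 0.358, against 0.139. The median fold change was 0.160, but it was 0.316 in pair a and -0.077 in pair b, so its sign depended on the pair. At 1491 genes near Suz12 regions the values were similar, with a median of 0.184, and 0.370 and -0.096 by pair. Differences in expression level between these genes and the others were not tested.

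The effect of the exon 4 deletion was then compared between NP and ESC, which share no library. In ESC the authors' deposited table has 0 genes at an adjusted p under 0.05 and 134 at an unadjusted p under 0.05 (0.919%) of 14587. The difference of the 2 deposited fold changes, over the root of their summed squared errors with a normal p and Benjamini-Hochberg adjustment, passed for 1 of 14078 genes (0.00710%), and 167 had an unadjusted p under 0.05. That gene was Stra8, at -2.20 ± 0.30 in NP and 2.09 ± 0.76 in ESC, a difference of -4.29 ± 0.81 (adjusted p 0.00192), and it rests on WT a and b in NP. Sohlh2 (-3.59 ± 0.89, from -2.31 in NP and 1.28 in ESC) and Otx2 (2.99 ± 0.75, from 4.05 and 1.05) each had an adjusted p of 0.284. Nrcam, a neuronal adhesion gene, had a difference of 3.52 ± 1.03 with an adjusted p of 1.000.

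The NP comparisons of CSex4 and of KO use the same WT a and b, so their values are set beside those of Deltaex4 without a measure of likeness. In the authors' deposited tables, Otx2 was 4.05 in Deltaex4, -1.69 in CSex4 (adjusted p 0.405) and -0.18 in KO (adjusted p 0.922). CPM of Otx2 were 0.518 and 0.550 in CSex4 and 2.06 and 1.11 in KO, so that the 2 Deltaex4 libraries were the highest of these 10 libraries, and KO-S, at 4.86 and 6.38, also lay below them. Six3 had 0.277 and 0.236 in CSex4 and 3.35 and 3.98 in KO, the latter overlapping Deltaex4. In KO-S Six3 had 0.0700 and 0.102, below Deltaex4 and below all 4 WT libraries. Six6 had 5.81 and 4.75 in CSex4 and 0.147 and 0.0764 in KO, below both Deltaex4 libraries, but 16.0 and 12.9 in KO-S, above both. Emx2 in KO-S, at 20.8 and 15.6, overlapped Deltaex4, and En2 in KO-S, at 7.70 and 5.39, did so with 1 library. Fabp7 had 25.9 and 28.8 in CSex4 and 0.0369 and 0.153 in KO, below Deltaex4. In KO-S Fabp7 had 10.6 and 11.2, also below Deltaex4 and below all 4 WT libraries. Tcf21 had 1.66 and 1.57 in CSex4 and 2.29 and 1.61 in KO, above both Deltaex4 libraries. In KO-S Tcf21 had 0.420 and 0.407, above Deltaex4 but also below all 4 WT libraries. Stra8 had 388 and 386 in CSex4 and 342 and 59.7 in KO, of which the last lay between the Deltaex4 libraries. In KO-S Stra8 had 42.8 and 21.5, below both Deltaex4 libraries. Meg3 had 2.14 and 1.53 in CSex4 and 1.36 and 0.841 in KO, and WT c, at 1.37, was as low. In KO-S Meg3 had 0.945 and 0.136, below all 4 WT libraries.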

How the data were processed

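RNA was measured in neuronal precursors of line 129-B13. Per the submitters' processing notes, Bowtie, TopHat, DESeq2 and DiffBind were used, with mm10 among the builds; versions and the counting strand are not given in the sources used here. The authors deposited, per gene, baseMean (a mean of normalised reads, a signal), a log2 fold change with its SE, a statistic (a score) and p-values, from a fit that the deposited tables call paired. The deposited ESC region lists give positions only. From the 15 digits of baseMean in 3 linked tables, whole reads of 14 libraries were recovered by lattice reduction (sympy 1.14.0), for 100.0% of members. The 2 KO libraries agreed between separate solutions for 15845 of 15848 genes, and 26 of 484 decoys with a baseMean over 10000 were wrongly solved, so levels of such genes are less sure. These reads serve for levels and for limma 3.58.1 (log2 of normalised reads + 1, Benjamini-Hochberg adjustment) in R 4.3.3. Calls use the authors' adjusted p under 0.05 and baseMean of at least 10. Sizes of difference between libraries use log2(CPM + 0.03). The recovery, the limma fit and the NP and ESC difference were tested on simulated data. Alternatives covered thresholds, filters, the replicate block, each library left out, and, chosen after seeing the data, WT c and d and the removal of chromosomes 8 and Y.

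Genes are named by rule: Suz12, all called genes, the 10 largest statistics each way, per list the 2 largest each way, those at an unadjusted p under 0.05 and the highest baseMean, and the 5 smallest p of the NP and ESC difference; of these the text describes the ones that carry a result, and some are not reported here. Other names (Ptch1, Otx1, Pax8, Fgf8, Emx1, Egr2, Olig3, Dbx2, Zscan4c and the core subunit genes) were chosen after their values were seen. The members and the 32 gene lists were chosen with earlier results of these data known. Promoters are RefSeq GRCm38.p6, matched for 12432 of 15848 genes. With 2 samples per group the precision is low.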

Additional observations from a re-analysis of the deposited data

Results flagged for a closer look

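Among 21 genes named for the whole comparison, 3 had 1 WT library far from the other 3 of 4. Chance flags about 1 in 20 groups, a rate that does not hold here because the genes were chosen by a statistic that uses WT a. WT a was high at 31.2 CPM for Foxf1, 8.65 for Tcf21 and 12.4 for Tdgf1. For Foxf1 and Tcf21 this raises the deposited difference, and for Tdgf1 it lowers it. Both Deltaex4 libraries lay below the other 3 WT libraries as well for Foxf1 and Tcf21, and above them for Tdgf1.

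Stra8 had effects of the exon 4 deletion that differed between NP and ESC by -4.29 on the log2 scale, by the test of the difference itself. The NP effect had the opposite sign against WT c and d, so this difference depends on which WT libraries are used.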

How the results depend on the processing

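The count of 14 calls (5 higher) became 25 at an adjusted p under 0.1 and 578 when the statistic was divided by its robust SD of 0.57; under the other thresholds and filters, and without chromosomes 8 and Y, it lay between 10 and 17. With limma it was 0 in all 10 fits, with these genes at an unadjusted p under 0.05: 232 with no replicate block, 366 with the replicate block as in the authors' fit and 201 with the block crossed. Leaving out 1 library gave 0 calls in each of 4 fits (0 to 0) and 210 to 2944 genes, the lone library of a group being assumed to vary like the other group, and 2944 came without WT b. The count was also 0, chosen after seeing the data, with WT c and d (1654 genes), all 4 WT (488) and WT b, c and d (1041). The pairing by letter is that of the authors' fit. Over 495 genes it gave back the deposited log2 fold changes to a median absolute difference of 9.31e-07, against 1.01e-04 for the crossed pairing. The levels show little that paired libraries share: the difference of WT a and b correlated with that of Deltaex4 a and b at 0.07 across 15848 genes.

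With WT c and d, limma turned the sign of Stra8 to 0.35, Dmrt1 to 0.11, Sohlh2 to 0.55, Gm52429 to 0.80 and Suz12 to 0.10, while the other 10 called genes kept theirs; the cause was not tested. Without WT a, Otx2 was 2.88, Six3 1.82 and Tcf21 -3.85. The NP and ESC difference passed for 1 gene, and for 440 with the statistic divided by its robust SD. List genes at an unadjusted p under 0.05 numbered 65, and 57 to 66 under the alternatives, and the median at H3K27me3 regions 0.148 to 0.176. Few reads limit Tcf21, Hoxc9 and Rax.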

Other observations

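The 5 Zscan4 genes, which mark a rare early embryo-like state of ESC cultures, were looked at after their values were seen. Their deposited log2 fold changes ran from -1.53 to -1.40, and as near-identical copies their reads cannot be told apart. Zscan4c had 37.0 and 19.9 CPM in WT a and b, 12.8 and 7.36 in Deltaex4 and 2.52 and 4.73 in WT c and d. Deltaex4 thus lay below WT a and b and above WT c and d. In CSex4 Zscan4c had 125 and 106.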
